A study of Drosophila melanogaster with 14 samples.

Results

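HMS-Beagle, HMS-Beagle2 and Burdock are LTR retrotransposon families of the gypsy type, and 408 of the 20426 listed non-reference insertions carried 1 of these 3 names. Members were chosen by the exact family name in each list, which gave 187 records for HMS-Beagle, 60 for HMS-Beagle2 and 161 for Burdock over 14 libraries. Elements of this type spread by reverse transcription of their RNA and integration of the DNA copy, and in the *Drosophila* ovary the piRNA pathway, with the Argonaute protein Piwi, represses them. A fly carries copies at sites that the reference genome lacks, and reads that cross the border between such a copy and its flanking DNA reveal the site.

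All libraries came from 1 fly line with a w background. It carries tj-GAL4, a driver active in follicle cells, the somatic cells around the germline of the ovary. It also carries tubP-GAL80[ts], which blocks GAL4 at low temperature, together with sh-piwi, a hairpin RNA that targets *piwi* transcripts, so that the no-KD animals hold every transgene too. The piwi-sKD group was grown at 20°C and moved to 25°C for the last 5 days, and gave 12 single adult flies read at 125 nt and 1 pool. The no-KD group stayed at 20°C and gave 1 pool of embryos aged 3 to 17 h, read at 100 nt. The source of the piwi-sKD pool is an adult fly in its label and embryos of the F2 generation in the study's methods. By the study's account the shift had been given to an earlier generation than the one sequenced. Whole flies or embryos were sequenced, and not the follicle cells in which the hairpin acts. With 1 library per pool, differences between pools have no replicates behind them, and the pools differ from the flies in the sequencing site and, as far as read lengths are labelled, in read length. Sex of the flies is not given in the labels.

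The lists hold sites with at least 2 supporting reads. By the study's methods, a library-specific call may be a true insertion or a chimeric fragment made during library preparation. Which of these the weak calls below are was not tested. Over all 123 families the single flies had 537 to 1307 records and 1774 to 5901 supporting reads each, while the piwi-sKD pool had 47733 supporting reads and the no-KD pool 38580 after its scaling was undone. Support in the piwi-sKD pool was thus 1.24 times that of the no-KD pool overall (counting 95% interval 1.22 to 1.25). A record absent from a list may have had 0 or 1 reads, so absence is given here as "not listed". Since 1 copy can be listed at several close break points, records of 1 family within 500 bp of each other over all libraries were joined into a locus.

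With records joined within 500 bp, most HMS-Beagle and Burdock loci were listed in at least 2 libraries, and most HMS-Beagle2 loci in 1. HMS-Beagle fell into 33 loci, of which 18 were listed in both pools, 4 in the piwi-sKD pool but not the no-KD pool, 2 in the no-KD pool but not the piwi-sKD pool, and 9 in flies alone. Burdock fell into 26 loci, of which 15 were listed in both pools, 6 in the piwi-sKD pool without the no-KD pool, 2 in the no-KD pool without the piwi-sKD pool, and 3 in flies alone. HMS-Beagle2 fell into 44 loci, of which 8 were listed in both pools, with 18 in the piwi-sKD pool alone of the pools, 13 in the no-KD pool alone of the pools and 5 in flies alone. Of the 5277 loci of all families, 42.9% were listed in both pools and 16.7% in flies alone. A further 25.7% were in the piwi-sKD pool without the no-KD pool, and 14.7% in the no-KD pool without the piwi-sKD pool. A single library accounted for 36.4% of HMS-Beagle loci, 38.5% of Burdock loci and 77.3% of HMS-Beagle2 loci (Wilson 95% interval 63.0 to 87.2%), against 47.0% of the 5277 loci of all families. For HMS-Beagle2, 29 of the 44 loci (65.9%) consisted of 1 record with 2 reads in all libraries together. So did 10 HMS-Beagle loci (30.3%) and 10 Burdock loci (38.5%), beside 37.1% of the loci of all families. With records of at least 3 reads, HMS-Beagle2 had 13 loci, HMS-Beagle 21 and Burdock 14, of which 0, 3 and 0 were listed in flies alone. The joining distance moved these counts. Joined within 20 bp, 39 of 63 HMS-Beagle loci, 56 of 58 HMS-Beagle2 loci and 33 of 49 Burdock loci were listed in 1 library, and 18, 7 and 6 in flies alone. Joined within 100 bp, 24 of 44 HMS-Beagle loci were listed in 1 library and 15 in flies alone.

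The families also differed in how well their sites were supported within a pool. HMS-Beagle had 34 records and 400 reads in the piwi-sKD pool, against 37 records and 348 reads in the no-KD pool, with a median of 8 reads per record in both. Burdock had 33 records and 292 reads in the piwi-sKD pool, against 31 records and 212 reads in the no-KD pool, with a median of 5 in both. HMS-Beagle2 had 30 records but 79 reads in the piwi-sKD pool, against 23 records and 61 reads in the no-KD pool, and its median was the 2-read minimum in both. No HMS-Beagle2 record exceeded 6 reads in either pool, whereas the strongest HMS-Beagle record had 37 reads in the piwi-sKD pool, against 29 in the no-KD pool, and the strongest Burdock record 36 and 31 in the same order. Records at 2 reads made up 70% of HMS-Beagle2 records in the piwi-sKD pool, against 65.2% in the no-KD pool. For HMS-Beagle the values were 14.7% in the piwi-sKD pool, against 18.9% in the no-KD pool, for Burdock 33.3% and 25.8%, and over all families 36.1% and 33.0%.

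The single flies are the only replicated group, and each of them had more HMS-Beagle and more Burdock loci than HMS-Beagle2 loci. HMS-Beagle was listed at 8.33 ± 3.63 loci per fly (SD, n = 12, lowest 5, median 7, highest 18) and Burdock at 7.08 ± 1.78 (lowest 4, median 7, highest 10). HMS-Beagle2 was listed at 0.583 ± 0.669 loci per fly (lowest 0, median 0.5, highest 2), and 6 of 12 flies had none of it. HMS-Beagle exceeded HMS-Beagle2 by 7.75 loci per fly (SD 3.84), and Burdock exceeded HMS-Beagle2 by 6.5 (SD 1.51), each in 12 of 12 flies. For either pair the two-sided paired sign-flip permutation test gave p = 4.88e-04, the smallest that 4096 flips can give, and adjusted p = 7.32e-04 over the 3 pairs. The 12 flies came from 1 line, and 80 of 100 HMS-Beagle and 75 of 85 Burdock listings in them fell on loci of both pools. The test thus covers how regularly these flies listed largely shared sites, and not independent insertions. HMS-Beagle and Burdock differed by 1.25 loci per fly (SD 3.79), with HMS-Beagle higher in 8 flies, lower in 3 and equal in 1 (permutation p = 0.333, adjusted p = 0.333), a difference smaller than its spread between flies.

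**Figure D1:**
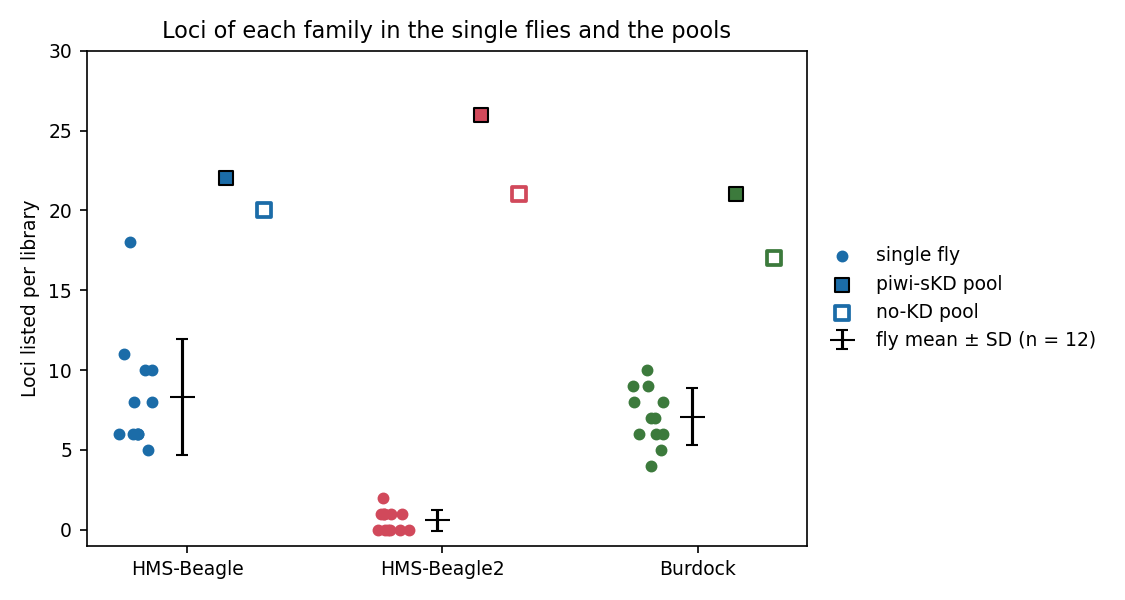
Number of loci listed in each library (vertical axis) for HMS-Beagle, HMS-Beagle2 and Burdock; circles are single flies, filled squares the piwi-sKD pool, open squares the no-KD pool, and black bars the fly mean ± SD (n = 12). HMS-Beagle2 has the most loci in the pools (26 in the piwi-sKD pool, 21 in the no-KD pool) and at most 2 in any fly, while HMS-Beagle reaches 18 loci in 1 fly.

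Fly 5 had the 18 HMS-Beagle loci, and its list was the longest of the 12, with 1307 records of all families. Sequencing depth itself is not in the lists. Across the 12 flies the number of HMS-Beagle loci went with the number of records of all other families, with Pearson's r = 0.73 (permutation p = 0.00372, adjusted 0.0149) and Spearman's rho = 0.67 (permutation p = 0.0208, adjusted 0.0416). Without the 2 flies farthest from the median of that number r was 0.59 over 10 flies. For Burdock r was 0.58 (permutation p = 0.0469, adjusted 0.0625) and rho 0.53 (permutation p = 0.0808, adjusted 0.0808), and r was 0.51 without the 2 farthest flies. These 4 relations were adjusted together, and the labels name 1 sequencing lane for all 12 flies. As a share of a fly's supporting reads, HMS-Beagle made up 0.784 ± 0.194% and Burdock 0.684 ± 0.174% (SD, n = 12), and HMS-Beagle2 0.0406 ± 0.0487%. In the piwi-sKD pool the same shares were 0.838% for HMS-Beagle, 0.612% for Burdock and 0.166% for HMS-Beagle2, against 0.902%, 0.550% and 0.158% in the no-KD pool. Pools and flies differ in preparation, so these shares are set side by side and were not tested. Among 80 families, the 3 whose records per fly followed those of HMS-Beagle most closely over the 12 flies were Cr1a (r = 0.91), 412 (r = 0.87) and 1360 (r = 0.85). For Burdock they were hobo (r = 0.82), G5 (r = 0.79) and blood (r = 0.78). With the total records of the fly, HMS-Beagle records had r = 0.80 and Burdock records r = 0.71, and the part of this total in the likeness was not tested.

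Most HMS-Beagle and Burdock sites of a fly were sites of the pools. Of 100 listings of an HMS-Beagle locus in a fly, 80 fell on loci of both pools, none on loci of 1 pool and 20 on loci of no pool. Of 85 Burdock listings, 75 fell on loci of both pools, 7 on a locus of 1 pool and 3 on loci of no pool, and over all families 76.7% of 9706 listings fell on loci of both pools. HMS-Beagle2 had 7 listings in flies, 0 on its loci of both pools, 2 on loci of 1 pool and 5 on loci of no pool. Read by locus, 14 of 18 HMS-Beagle loci of both pools (77.8%) were listed in at least 1 fly, and 12 of 15 Burdock loci (80%), against 57.6% of 2266 such loci of all families and 0 of 8 for HMS-Beagle2 (Wilson upper limit 32.4%). Among loci with at most 6 reads in each pool, which all 8 of these HMS-Beagle2 loci were, 27.1% of 759 loci of all families were listed in a fly, a share inside the HMS-Beagle2 interval. A single fly listed 3 to 13 of the 18 HMS-Beagle loci (median 6.5, or 36.1%) and 4 to 9 of the 15 Burdock loci (median 6, or 40%), while the median for all families was 27.4%. At least 6 flies listed 8 of 33 HMS-Beagle loci (24.2%), 8 of 26 Burdock loci (30.8%) and 0 of 44 HMS-Beagle2 loci. Over all families it was 719 of 5277 loci (13.6%). No locus of the 3 families was listed in all 12 flies, and 96 of 5277 loci of all families were (1.82%). That share lies below the Wilson upper limits of 10.4% for HMS-Beagle, 8.03% for HMS-Beagle2 and 12.9% for Burdock. The absence of such loci thus does not set the 3 families apart.

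**Figure D2:**
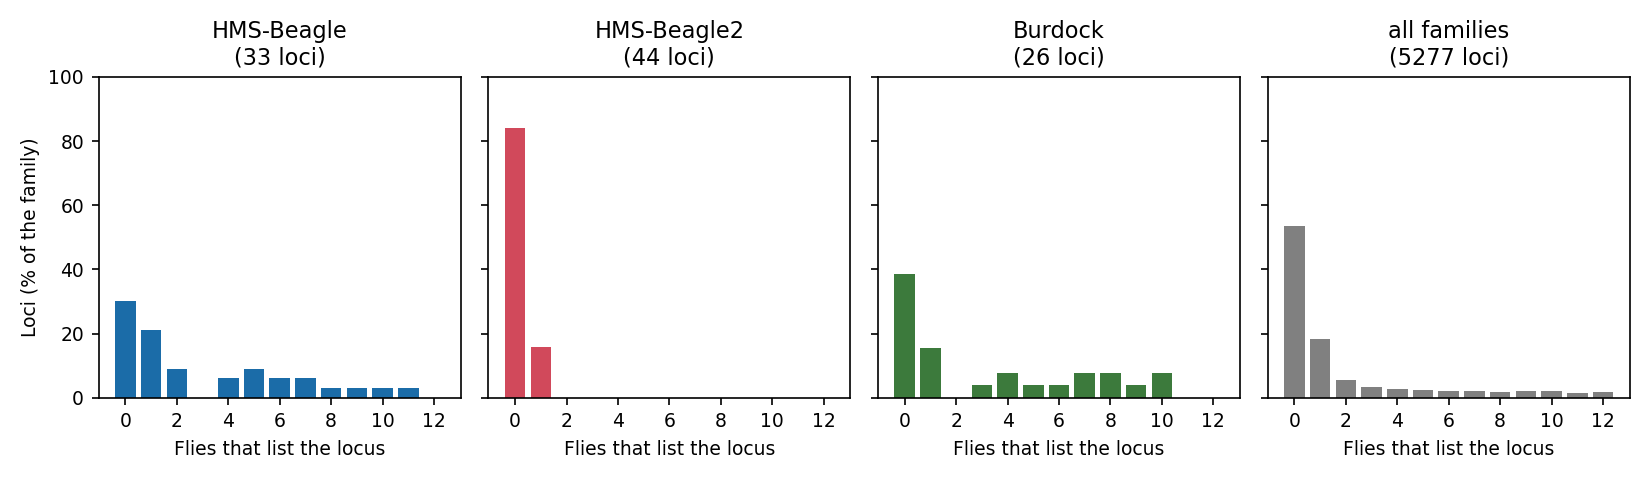
Share of the loci of each family (vertical axis, %) by the number of flies that list the locus (horizontal axis, 0 to 12), for HMS-Beagle, HMS-Beagle2, Burdock and all families. The 44 HMS-Beagle2 loci stop at 1 fly, whereas HMS-Beagle reaches 11 flies and Burdock 10.

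Of the 8 HMS-Beagle loci listed in at least 6 flies, 5 lay on the autosomes. A locus on 3R at 31269208 to 31269526, outside any annotated gene, had 30 reads in each pool and was listed in 11 flies with 2 to 10 reads. Fly 6 was the 1 fly that did not list it. A locus on 3L at 14054338 in *Frl*, which encodes a formin that builds actin filaments, had 28 reads in the piwi-sKD pool, against 14 in the no-KD pool, and was listed in 9 flies with 2 to 5 reads. It had the highest ratio among the 12 autosomal HMS-Beagle loci of both pools, 2 with a counting 95% interval of 1.02 to 4.11. The interval is not adjusted for that choice and holds 1.24, the ratio of all supporting reads. A pair of loci lay in genes of immunoglobulin-type cell surface proteins, *beat-Ib* on 2L at 15930836 and *side-II* on 2L at 14947915. The first had 29 reads in the piwi-sKD pool, against 27 in the no-KD pool, with 7 flies. The second had 35 reads in the piwi-sKD pool, against 30 in the no-KD pool, with 5 flies. *Drep3* on 2R at 12059143, of the DNA fragmentation factor family, had 22 reads in the piwi-sKD pool, against 23 in the no-KD pool, and was listed in 7 flies with 2 to 9 reads. The strongest loci of the pools included *CG43060* on 3R at 8055685 (37 reads in the piwi-sKD pool, 29 in the no-KD pool, 4 flies) and *CG14073* on 3L at 18815217 (35 and 38, 5 flies). The 12 autosomal loci of both pools were listed in 2 to 11 flies each, and the one in *lovit* on 3L at 25341498, with 27 reads in each pool, in 2.

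HMS-Beagle loci of both pools had more support on the autosomes than on the X. The 12 autosomal loci of both pools had 22 to 37 reads in the piwi-sKD pool (median 28.5) and 14 to 38 in the no-KD pool (median 27). The 5 loci on the X had 2 to 15 reads in the piwi-sKD pool (median 7) and 2 to 12 in the no-KD pool (median 5), and the 1 locus on the Y had 4 and 2. The autosomal and X ranges did not overlap in either pool, and the lowest autosomal locus in the no-KD pool was the one in *Frl*. Of the 5 X loci, 4 lay between 23052416 and 23432962, and 3 of those had records of other families within 500 bp. The remaining X locus, at 1583495, had 15 reads in the piwi-sKD pool, against 8 in the no-KD pool. Over all families the medians lay closer, at 12 reads for autosomal loci and 9 for X loci in the piwi-sKD pool, against 10 and 7 in the no-KD pool. Burdock had autosomal loci from 2 to 40 reads in the piwi-sKD pool (median 23.5) and 3 X loci of 5, 7 and 18 reads. These are descriptions of 1 library each, with no test.

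**Figure D3:**
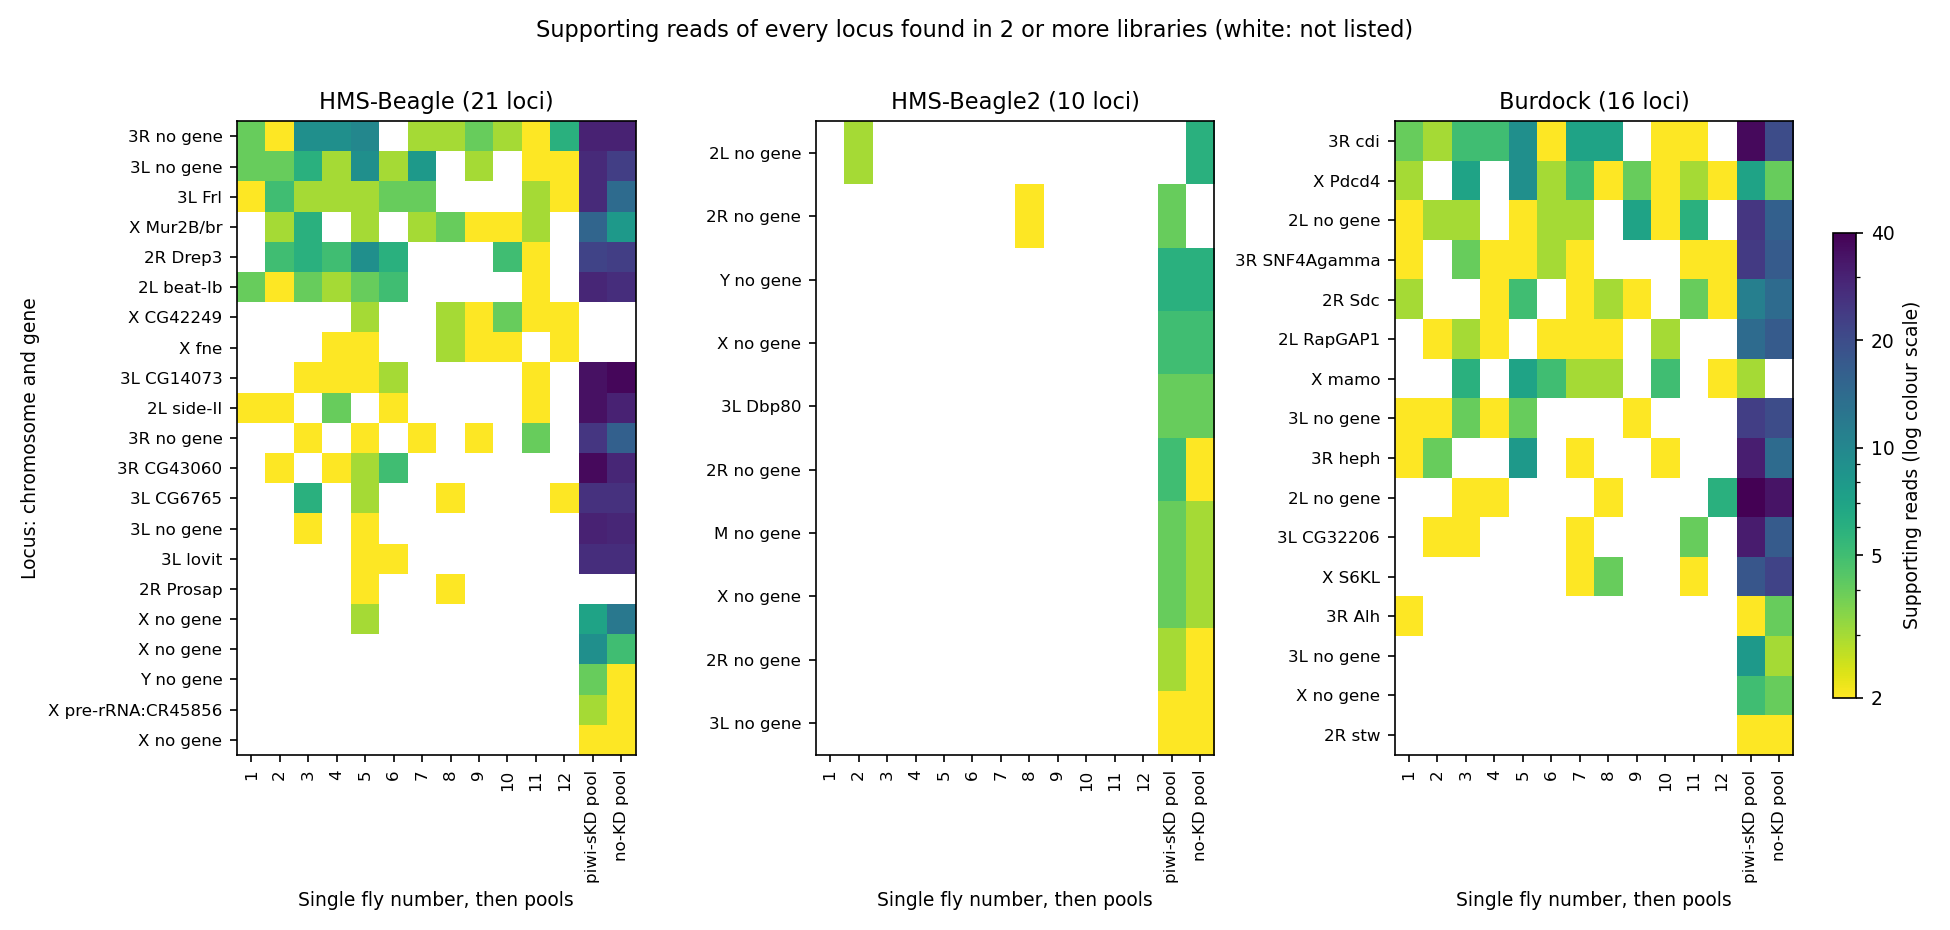
Supporting reads (logarithmic colour scale, white where the locus is not listed) of each locus found in at least 2 libraries, with the 12 single flies, the piwi-sKD pool and the no-KD pool as columns and loci, by chromosome and gene, as rows. HMS-Beagle (21 loci) and Burdock (16 loci) have dark pool columns and scattered fly columns, HMS-Beagle2 (10 loci) is pale in the pools and nearly empty in the flies, and the HMS-Beagle rows *CG42249* and *fne* are filled in 6 flies each and empty in both pools.

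A small set of sites on the X ran the other way, with many flies and few or no pool reads. HMS-Beagle at 11103111 to 11103117 in *CG42249* was listed in flies 5, 8, 9, 10, 11 and 12, with 3, 3, 2, 4, 2 and 2 reads, and in neither pool. HMS-Beagle at 12937706 to 12937711 in *fne*, which encodes an ELAV-type RNA-binding protein of neurons, was listed in flies 4, 5, 8, 9, 10 and 12, with 2, 2, 3, 2, 2 and 2 reads, and in neither pool. The *fne* locus and the Burdock locus in *mamo* fall outside the rule for naming loci and were picked after their values were seen. The 2 HMS-Beagle loci had 5 carrier flies in common, or 83.3% of the carriers of each, and lie 1834595 bp apart. The HMS-Beagle locus on the X at 1583495, 9519616 bp from *CG42249*, also shared 5 of the 6 *CG42249* carriers. Among loci listed in at least 6 flies, those in no pool were 2 of 8 for HMS-Beagle (25%, Wilson 95% interval 7.15 to 59.1%), against 0 of 8 for Burdock and 51 of 719 over all families (7.09%). On the X alone they were 2 of 3 for HMS-Beagle (20.8 to 93.9%) and 12 of 133 over all families (9.02%). Of the 51 loci of all families, 36 lay on 2L, 2R, 3L and 3R, so such loci were not particular to the X. No fly had more than 4 reads at *CG42249* or *fne*. With records of at least 3 reads, no HMS-Beagle locus was listed in at least 6 flies and no pool.

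Burdock had a pair of X sites of the same kind. The locus at 13989873 to 13989957 in *mamo*, a zinc finger gene needed in the germline, was listed in flies 3, 5, 6, 7, 8, 10 and 12, with 6, 7, 5, 3, 3, 5 and 2 reads, had 3 reads in the piwi-sKD pool and was not listed in the no-KD pool. The locus at 13752178 to 13752452 in *Pdcd4*, which encodes an inhibitor of translation, was listed in 10 flies with 2 to 9 reads, and had 7 reads in the piwi-sKD pool, against 4 in the no-KD pool. All 7 carriers of the *mamo* locus were also carriers of the *Pdcd4* locus, 237695 bp away. So were all 6 carriers of the HMS-Beagle locus in *CG42249*, 2649067 bp from *Pdcd4*, and 7 of the 8 carriers of the HMS-Beagle locus at 1583495, 12168683 bp from it. Whether carriers were shared beyond what a locus of 10 flies gives was not tested. The summed fly reads were 10.3 times the piwi-sKD pool reads at *mamo* and 5.71 times at *Pdcd4*. The median of that ratio was 1.34 over the 659 loci of all families with at least 6 flies and a piwi-sKD record, and 32 of them exceeded the *mamo* value and 62 the *Pdcd4* value. For the 118 of these loci on the X the median was 1.54. The HMS-Beagle locus on the X at 1583495, inside *br*, the ecdysone-induced transcription factor Broad, and *Mur2B*, was listed in 8 flies, with 15 reads in the piwi-sKD pool, against 8 in the no-KD pool, and its ratio was 1.73. Flies and pools differ in site and read length, and the part of these in the X sites cannot be told apart from that of the animals.

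Burdock loci of both pools lay on each of the arms X, 2L, 2R, 3L and 3R. The site on 2L at 17936868 to 17937246, outside annotated genes, had 40 reads in the piwi-sKD pool, against 34 in the no-KD pool, and was listed in 4 flies. In *cdi*, a protein kinase gene on 3R at 19091921, Burdock had 37 reads in the piwi-sKD pool, against 20 in the no-KD pool, and 10 flies listed it with 2 to 9 reads. *CG32206* on 3L at 19395759 had 32 reads in the piwi-sKD pool, against 17 in the no-KD pool (4 flies), and *heph* on 3R at 31970829, a gene of a splicing regulator of the polypyrimidine tract binding type, 31 against 14 (5 flies). *SNF4Agamma* on 3R at 21186469, the gamma subunit of the AMP-activated kinase, had 24 reads in the piwi-sKD pool, against 17 in the no-KD pool, with 8 flies. *S6KL* on the X at 18801346 had 18 reads in the piwi-sKD pool, against 22 in the no-KD pool, with 3 flies, *RapGAP1* on 2L at 7576778 had 14 and 17 with 7 flies, and *Sdc*, the syndecan gene on 2R at 21463159, had 11 and 14 with 8 flies. Over its 15 loci of both pools Burdock had a median of 18 reads in the piwi-sKD pool, against 16 in the no-KD pool. Of these 15, 10 were higher in the piwi-sKD pool, near the 1356 of 2266 such loci of all families.

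Summed over records, Burdock support in the piwi-sKD pool was 1.38 times that of the no-KD pool (counting 95% interval 1.15 to 1.65), HMS-Beagle reads 1.15 times (0.993 to 1.33) and HMS-Beagle2 reads 1.30 times (0.916 to 1.84). Each interval holds the ratio of all families, 1.24, and the intervals cover counting error only. At the loci of both pools the median ratio was 1.25 for Burdock and 1.12 for HMS-Beagle, beside 1.18 over 2266 loci of all families.

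**Figure D4:**
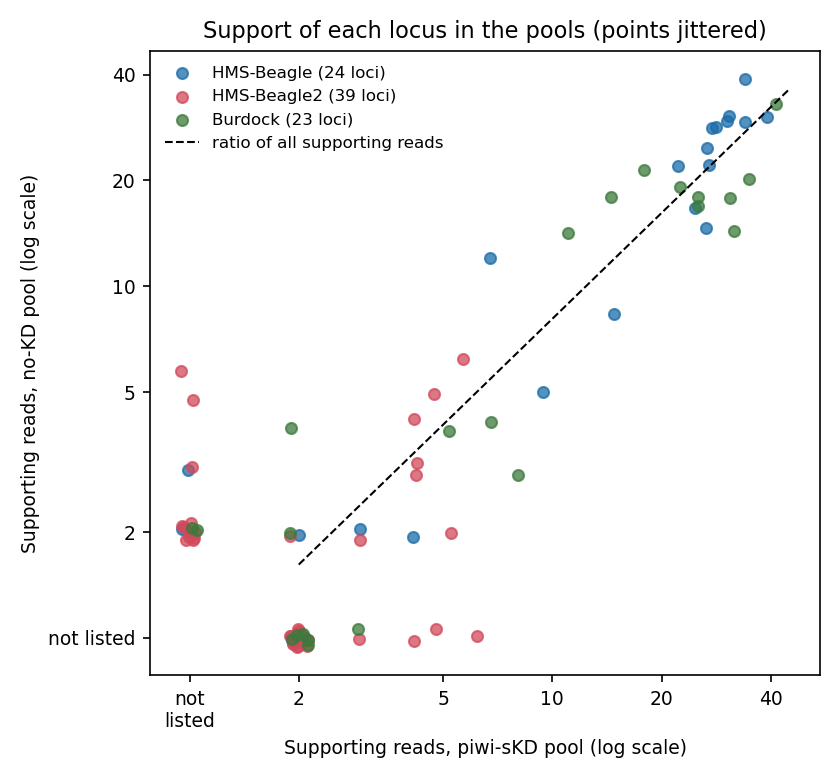
Supporting reads of each locus in the piwi-sKD pool (horizontal axis, log scale) and the no-KD pool (vertical axis, log scale), for HMS-Beagle (24 loci), HMS-Beagle2 (39 loci) and Burdock (23 loci), with points moved slightly apart and loci not listed in a pool drawn beside that axis. The dashed line is the ratio of all supporting reads, 1.24; the strong loci of HMS-Beagle and Burdock lie near it, and no HMS-Beagle2 locus exceeds 6 reads in either pool.

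In its DNA sequencing of the pools, the study asked for each family whether insertions specific to the piwi-sKD pool outnumber those specific to the no-KD pool. For this it matched records within 20 bp and subsampled the piwi-sKD reads to the no-KD depth. For HMS-Beagle2 the study also reported more extrachromosomal circular DNA in embryos of piwi-sKD mothers, which these lists do not measure. Counts here are without subsampling. HMS-Beagle had 10 records specific to the piwi-sKD pool and 14 specific to the no-KD pool, HMS-Beagle2 had 23 and 16, and Burdock 18 and 14, beside 2870 and 2135 over all families. Set against all other families, the odds ratio was 0.530 for HMS-Beagle (p = 0.148, adjusted p = 0.945), 1.07 for HMS-Beagle2 (p = 0.872, adjusted p = 1) and 0.956 for Burdock (p = 1, adjusted p = 1; two-sided Fisher's exact test with Benjamini-Hochberg adjustment over 114 families). None of the 3 was called, and 0% of the 114 families were called, with 2 of them at an unadjusted p under 0.05 by this test and 2 by an exact binomial test. With the piwi-sKD support thinned to the no-KD depth (median of 100 draws), HMS-Beagle had 9 and 14 specific records, HMS-Beagle2 16 and 16, and Burdock 15 and 15, in the same order of pools. The test compares 2 libraries and not 2 conditions.

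Many of these specific records lay close to a record of the same family in the other pool. A record of the same family lay within 500 bp in the other pool for 6 of the 10 HMS-Beagle records specific to the piwi-sKD pool and 12 of the 14 specific to the no-KD pool. For Burdock it was 12 of 18 in the piwi-sKD pool and 12 of 14 in the no-KD pool, and for HMS-Beagle2 6 of 23 and 5 of 16. A specific record here had no record of any family within 20 bp in the other pool. This leaves out the HMS-Beagle2 record at X 23284007, with 6 reads in the piwi-sKD pool alone. Matched to the same family only, HMS-Beagle2 had 28 specific records in the piwi-sKD pool, against 21 in the no-KD pool. For HMS-Beagle it was 13 against 16, and for Burdock 18 against 14. Under the rule of any family, specific records with no same-family neighbour were weak. They reached 2 reads for HMS-Beagle, 4 for HMS-Beagle2 and 3 for Burdock in the piwi-sKD pool, against 3, 5 and 2 reads in the no-KD pool. Counted as loci in place of records, a choice made after the data were seen, 4 HMS-Beagle, 18 HMS-Beagle2 and 6 Burdock loci were listed in the piwi-sKD pool alone of the pools, against 2, 13 and 2 in the no-KD pool, and the odds ratio was on the other side of 1 for each family (adjusted p of at least 0.926).

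HMS-Beagle2 was the 1 family of the 3 with loci on the mitochondrial genome. They were 7 of its 44 loci (15.9%, Wilson 95% interval 7.93 to 29.4%), in a place where 0.815% of the loci of all families lay. These 7 loci came from 3 records in the piwi-sKD pool, against 6 in the no-KD pool, and were listed in no fly. Each of the 7 had records of other families within 500 bp. So did all 7 of its X loci, and 20 of its 44 loci in all, against 10 of 33 for HMS-Beagle and 5 of 26 for Burdock. The same was not counted over all families, so these counts do not show crowding particular to HMS-Beagle2. On the mitochondrial genome all families together had 73 records in the piwi-sKD pool, against 76 in the no-KD pool. The families BS and Rt1a were among the neighbours at each of the 7 mitochondrial loci, so calls there were not particular to HMS-Beagle2. At X 23284007, where HMS-Beagle2 had 6 reads in the piwi-sKD pool and was not listed in the no-KD pool, 16 other families were listed within 500 bp. At X 23431415 to 23431792, with 5 reads in each pool, it was 13, and an HMS-Beagle locus with 2 reads in each pool overlapped it. On 2R at 1261547 an HMS-Beagle record (2 reads in the no-KD pool) lay 18 bp from an HMS-Beagle2 locus with 5 reads in the piwi-sKD pool, against 2 in the no-KD pool. Whether the neighbouring records share reads was not tested.

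The strongest HMS-Beagle2 locus without such neighbours was on the Y at 2816060 to 2816062, with 6 reads in each pool. On 2L, 2 loci had at least 5 reads in the no-KD pool and were not listed in the piwi-sKD pool. One, at 22515279 to 22515644, had 6 reads in the no-KD pool and 3 reads in fly 2, and the other, at 22522526, had 5 reads in the no-KD pool and was listed in no fly. In *Dbp80*, a DEAD-box RNA helicase gene on 3L that spans 27279316 to 27422159, HMS-Beagle2 had 4 loci. One had 4 reads in each pool, one at 27346769 had 5 reads in the piwi-sKD pool alone, one had 2 reads in the piwi-sKD pool alone and one, at 27362402, had 2 reads in fly 10 alone. The number of HMS-Beagle2 loci in both pools depended on the joining distance, with 8 at 500 bp, 5 at 100 bp and 2 at 20 bp.

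**Figure D5:**
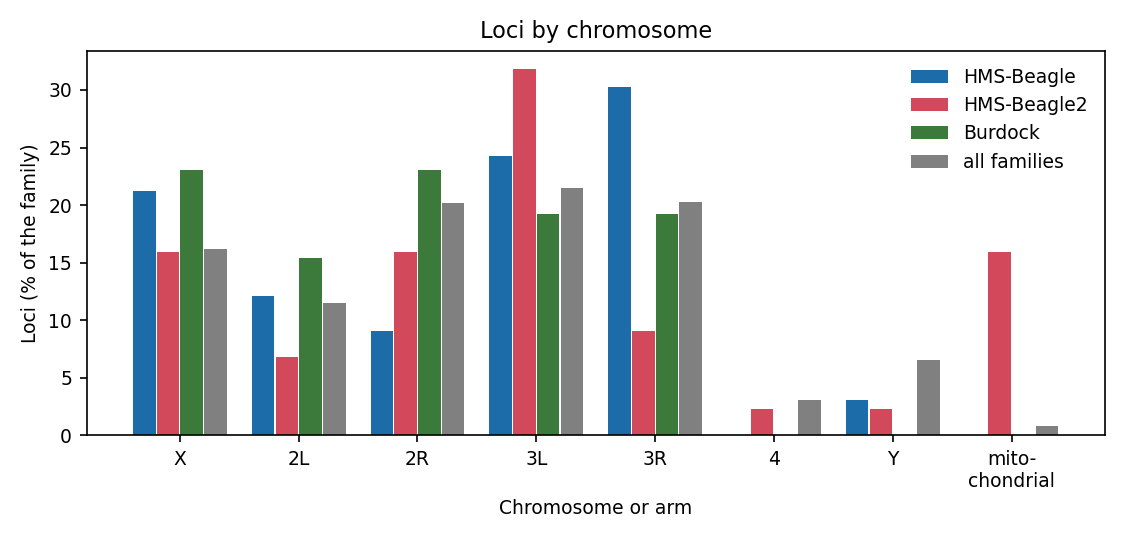
Share of the loci of each family (vertical axis, %) on each chromosome or arm (horizontal axis), for HMS-Beagle, HMS-Beagle2, Burdock and all families. HMS-Beagle2 has 15.9% of its loci on the mitochondrial genome, against 0.815% for all families. HMS-Beagle has 10 of 33 loci (30.3%) on 3R, 3 of them in both pools, against 20.3% for all families, a difference that was not tested.

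By arm, HMS-Beagle had 10 loci on 3R, 8 on 3L, 7 on the X, 4 on 2L, 3 on 2R, 1 on the Y and none on chromosome 4. Burdock had 6 on the X, 6 on 2R, 5 each on 3L and 3R and 4 on 2L, and none on the Y or chromosome 4. HMS-Beagle2 had 14 on 3L, 7 each on the X and 2R, 4 on 3R, 3 on 2L and 1 each on chromosome 4 and the Y. Inside annotated gene spans lay 16 of 33 HMS-Beagle loci (48.5%), 15 of 26 Burdock loci (57.7%) and 17 of 37 nuclear HMS-Beagle2 loci (45.9%), near the 52.3% of all families. Restricted to loci of at least 2 libraries, the shares were 13 of 21 for HMS-Beagle (61.9%), 11 of 16 for Burdock (68.8%) and 1 of 9 for HMS-Beagle2 (11.1%), beside 51.7% of all families. The annotation used holds gene spans only, so exons and introns were not told apart.

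Loci listed in 1 fly and in no pool were few. HMS-Beagle had 6 of them, on 2L at 9973765 (fly 4), on 3L at 23511631 (fly 3) and 26395654 (fly 5), and on 3R at 3814364 (fly 10), 5052958 (fly 1) and 8570520 (fly 5). All had 2 reads except 5052958 with 3, and none lay in a gene. HMS-Beagle2 had 5, each with 2 reads, in *CG34386* on 2R (fly 7), in *CG13293* on 3L (fly 11), in *Dbp80* (fly 10), in *Pits* on the X (fly 3) and on 3L at 2630763 outside genes (fly 8). Burdock had 3, each with 2 reads, in *lovit* and *flip* (fly 8 for both) and in *stnA* and *stnB*, which overlap on the X (fly 2). Such loci made up 18.2% of HMS-Beagle, 11.4% of HMS-Beagle2 and 11.5% of Burdock loci, beside 11.6% of all families. With the exception of the HMS-Beagle site with 3 reads, every one of these 14 stood at the minimum that the lists allow.

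Support within the flies was low for all 3 families. HMS-Beagle records in flies had a median of 2 reads and at most 7, Burdock records a median of 2 and at most 9, and HMS-Beagle2 records a median of 2 and at most 3. The share of a fly's HMS-Beagle records at 2 reads was 52.9 ± 21.1%, against 48.5 ± 4.78% for all other families of the same fly (SD, n = 12), higher in 7 of 12 flies (difference 4.45 percentage points, SD 20.1; sign-flip permutation p = 0.449, adjusted p = 0.625). For Burdock it was 57.0 ± 17.9%, against 48.5 ± 4.80%, also higher in 7 of 12 flies (difference 8.50 percentage points, SD 17.8; permutation p = 0.133, adjusted p = 0.296). Neither was called. Of the 69 families with records in all 12 flies, 8.7% were called below and 2.9% above the rest. HMS-Beagle2 could not be entered, since 6 flies had no record of it.

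The Burdock calls had 1 recurrent neighbour. The gypsy7 family had 15 records in the whole series, and 5 of them (33.3%) lay within 500 bp of a Burdock record, 1 of its 6 records in the piwi-sKD pool and 4 of its 8 in the no-KD pool, with up to 17 reads. Whether these calls are 1 insertion under 2 names was not tested.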

How the data were processed

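Genomic DNA of 14 libraries was sequenced as read pairs. The authors mapped reads to dm6 with BWA (0.7.5a-r405 for the pools, 0.7.10-r789 for the flies) and used T-lex *de novo* to find insertions that the reference lacks. The deposited support of the piwi-sKD pool and the 12 flies is a count of reads per insertion. The deposited support of the no-KD pool is a signal scaled by the authors, in steps of 1.23 as its values show, and reads were recovered by dividing by that step. Coordinates are as in the lists, and whether they start at 0 or 1 is not stated. Gene spans came from RefSeq (Release 6 plus ISO1 MT).

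Records of a family within 500 bp were joined to loci. A pool-specific record had no record of any family within 20 bp in the other pool, and families with at least 5 such records entered Fisher's test. Flies were compared with sign-flip permutation tests (two-sided). Shares have Wilson 95% intervals. Intervals cover counting error only, and read pairs are not independent molecules. The procedures were tested on simulated data. Python 3.11.15, pandas 2.3.3 and scipy 1.17.1 were used. Loci were named if they were the 3 strongest of a pool, had at least 5 reads in 1 pool alone, were listed in 1 fly and no pool, or lay in a gene and were listed in at least 6 flies (at most 5 a family). Loci in *fne*, *mamo*, *heph* and *lovit* (HMS-Beagle), the remaining *Dbp80* loci and the HMS-Beagle loci beside HMS-Beagle2 ones were picked after their values were seen. The correlations with the number of records per fly and the set of loci with at most 6 reads were added after the data were seen. Members, lists and tests were chosen with earlier results of these data known. No sequence is shown, since no sequence table was used here.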

Additional observations from a re-analysis of the deposited data

How the results depend on the processing

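Odds ratios of pool-specific records crossed 1 under some settings. For HMS-Beagle2 the value was 0.951 with a 100 bp window, 0.781 with at least 3 reads, 0.975 with the piwi-sKD pool thinned to the no-KD depth and 0.790 by loci. For Burdock it was 1.30 with 100 bp, 1.61 with 500 bp and 1.72 by loci, and for HMS-Beagle 1.14 by loci. The count by loci was added after the data were seen. Adjusted p lay between 0.900 and 1 in every setting run, no family was called in any of them, and the cause of the crossings was not tested. HMS-Beagle had fewer than 5 pool-specific records at 500 bp and was not tested there. Joined within 20 bp, HMS-Beagle had 63 loci and Burdock 49, since records of 1 locus then separate. With at least 3 reads, HMS-Beagle had 21 loci, HMS-Beagle2 13 and Burdock 14. HMS-Beagle2 loci in both pools numbered 2 at 20 bp, 5 at 100 bp and 3 with at least 3 reads. The pairs with HMS-Beagle2 in the flies kept their direction and adjusted p = 7.32e-04 (sign-flip permutation) under all 6 alternatives, with differences of 4.08 to 9.08 loci for HMS-Beagle and 3.08 to 7.5 for Burdock. HMS-Beagle minus Burdock stayed uncalled, at 1 to 1.75 loci (adjusted p 0.141 to 0.333, permutation). Over all families, the test of records at 2 reads called 8 of 69 families, 18 with 2 or 3 reads and 13 by loci. HMS-Beagle and Burdock were called in none of these. No paired analysis was possible because only 1 library exists here per pool, which leaves no pairs. Fly libraries of 1774 to 5901 supporting reads limit what a missing record shows.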
